A study of Homo sapiens with 6 samples.

Results

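The replication fork and chromatin assembly genes described here are 42 named human genes out of the 60252 gene IDs of the count table, taken by name from a list that was drawn up with earlier results of these data known. All 42 were found in the table, and 35 had enough counts to be tested. RNA was measured in RPE-1, a line of human retinal pigment epithelial cells immortalised with telomerase, to ask which genes depend on the kinase ATR as cells pass from S phase to G2. The 6 conditions were asynchronous cells with no synchronisation (cycling), cells held for 24 h in 2 mM thymidine and not released (arrested), and cells washed 3 times out of the same thymidine and collected 4 h or 6 h later. From 1 h after the washes the released cells received either the solvent DMSO (4h_DMSO, 6h_DMSO) or the ATR inhibitor AZ20 at 2 µM (4h_ATRi, 6h_ATRi), for 3 h or 5 h. The series places 4 h of release in late S phase and 6 h in G2. Each condition has 3 libraries, lettered A, B and C for 3 independent experiments, except 6h_ATRi. That condition has 2, because the count table used here holds no column for its experiment C.

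DNA is copied at forks, where a helicase of CDC45, GINS and MCM proteins opens the duplex, polymerase α with primase starts each strand, and polymerases δ and ε extend it while held on the template by the ring-shaped clamp PCNA. Behind the fork, histone chaperones such as CAF-1 rebuild nucleosomes, and UHRF1 brings DNMT1 to copy the methylation pattern. Transcription of many of these genes is known to rise before and during S phase under E2F transcription factors, and ATR is the kinase that restrains origin firing and mitotic entry when replication stalls.

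Because many of these genes are known E2F targets, the 120 bases before the listed start site are shown for 6 of them, the ones with the results described most closely below. They are RefSeq sequences of GRCh38.p14, written 5′ to 3′ on the strand of the gene, with an E2F-type 8-base match in capitals.
PCNA: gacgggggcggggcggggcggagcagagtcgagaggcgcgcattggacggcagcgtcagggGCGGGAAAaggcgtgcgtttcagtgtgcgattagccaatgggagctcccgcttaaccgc
HELLS: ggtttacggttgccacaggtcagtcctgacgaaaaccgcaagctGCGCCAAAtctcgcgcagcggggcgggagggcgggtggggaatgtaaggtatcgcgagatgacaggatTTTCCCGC
UHRF1: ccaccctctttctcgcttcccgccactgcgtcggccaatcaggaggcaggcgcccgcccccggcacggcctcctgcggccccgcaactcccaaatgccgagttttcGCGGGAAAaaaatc
DNMT1: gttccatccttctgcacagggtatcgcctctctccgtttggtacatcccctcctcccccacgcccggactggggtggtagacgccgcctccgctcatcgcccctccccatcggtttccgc
CHAF1A: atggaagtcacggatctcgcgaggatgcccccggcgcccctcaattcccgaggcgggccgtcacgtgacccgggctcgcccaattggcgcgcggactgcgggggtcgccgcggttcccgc
TMPO: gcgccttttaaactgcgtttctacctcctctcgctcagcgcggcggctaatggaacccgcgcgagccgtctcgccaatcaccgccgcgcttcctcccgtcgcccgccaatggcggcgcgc

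These stretches lie at chr20:5126623-5126742 (minus strand) for PCNA, chr10:94545668-94545787 (plus) for HELLS, chr19:4909381-4909500 (plus) for UHRF1, chr19:10194954-10195073 (minus) for DNMT1, chr19:4402520-4402639 (plus) for CHAF1A and chr12:98515453-98515572 (plus) for TMPO. The letters searched were TTTCCCGC, TTTCGCGC, TTTGCCGC and TTTGGCGC on both strands, in a window of 250 bases before to 50 after the first start site listed for each gene. Of the 42 genes, 36 had a window that was searched, and ATAD2, DSCC1, GINS4, POLD3, RPA2 and RPA3 did not. Windows on chr8 were left out for the 42 genes but kept in the count over all genes. Genes without a window and genes left out for lying on chr8 are not separated here. A match was present in 15 of the 36 windows (41.7%), against 908 of 27305 windows over all genes (3.33%). PCNA held 1 match whose first base was at -59, HELLS held 2, at -76 and -8, and UHRF1 held 1 at -14. The match of DNMT1 began at -2, so it runs past the start and is not shown in capitals, and the windows of CHAF1A and TMPO held none of these letters. The CCAAT letters, searched the same way, were in 20 of the 36 windows (55.6%) against 35.7% of all windows. The letters TTTGAA, which are known from promoters active in G2, were in the windows of ASF1B and DBF4 alone (5.56%), against 15.4% of all windows. These are matches of letters only and no binding was measured.

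The 17 libraries held 1758747 to 2357561 counts each, and the 42 genes took 2390 to 3722 of them per library, or 0.124% to 0.158%. The median count over the libraries was under 10 for 15 of the genes, 10 to 100 for 23 and 100 or more for 4. RFC5, MSH6 and TMPO alone took 72.2% of the counts on the 42. The libraries of experiment B stood apart from A and C on the first principal component, which held 27% of the variance. Of 12 markers of retinal pigment epithelium, RPE65, RLBP1, TTR and LRAT had medians of 0 counts over the 17 libraries, and TYR, OTX2 and MITF had medians of 3, 4 and 9. SERPINF1 averaged 20 ± 6.31 CPM (SD, n = 17), CPM being the count scaled to a common library total with TMM factors. BEST1 averaged 12828 ± 1732 CPM, KRT8 3839 ± 955, PMEL 323 ± 52.3 and KRT18 283 ± 47, and each of these 4 is overlapped by a feature on the other strand. PTPRC, CD3E, EPCAM and ALB, which mark other cell types, averaged under the level of 1 count, while COL1A1 averaged 25.6 ± 14.3 CPM.

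For many coding genes more counts were assigned to an antisense feature than to the gene, which bears on every level below. An antisense RNA annotated over the exons of a coding gene held more counts than that gene in 1234 of 1568 such pairs. Only pairs in which both features passed the filter on low counts are included. FTH1, the ferritin heavy chain gene, held 184 to 370 counts per library, while BEST1, which overlaps it on the other strand, held 19828 to 33505. The library kit keeps strand, and the strand setting of the counting is not given in the sources used here. Counting a stranded library with the opposite setting would assign a gene's reads to whatever is annotated on its other strand, and whether this was done was not tested. Values below are therefore counts assigned to a gene, which may not be its own transcripts. In the annotation used here, HSD17B6, GSE1 and AC011498.3 share exon stretches of 132, 7 and 81 bases with PRIM1, GINS2 and CHAF1A. That annotation may differ from the one used for counting. The values of HSD17B6, GSE1 or AC011498.3 may hold reads of PRIM1, GINS2 or CHAF1A. In the same way the values of RFC5, MSH6 or TMPO may hold reads of the features that overlap them. How many such reads there are was not tested. Of the 42 genes, 26 have no exon overlapped on the other strand and 16 do, with 20 overlapping features. For 9 of those 16, the most abundant overlapping feature was above the gene in every library. AC009630.2 averaged 286 ± 69.5 CPM over 17 libraries beside 6.6 ± 1.64 for the helicase subunit GINS4, and TMPO-AS1 averaged 999 ± 209 beside 195 ± 43.4 for TMPO. HSD17B6, a hydroxysteroid dehydrogenase gene that overlaps the primase gene PRIM1, averaged 37.6 ± 20.8 beside 1.76 ± 1.15. GSE1 averaged 64.3 ± 25.7 beside 2.48 ± 1.43 for GINS2, and AC011466.3 averaged 200 ± 46 beside 23.9 ± 5.66 for the ligase LIG1. For 6 genes the overlapping features stayed below the gene in all 17 libraries. RFC5 averaged 403 ± 72.3 CPM beside 132 ± 31.2 for AC131159.2 and 52.1 ± 7.64 for WSB2, and MSH6 averaged 444 ± 50.2 beside 86.4 ± 34.4 for FBXO11. Where the stretches overlap, reads of the gene and of the feature cannot be told apart here.

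**Figure D1:**
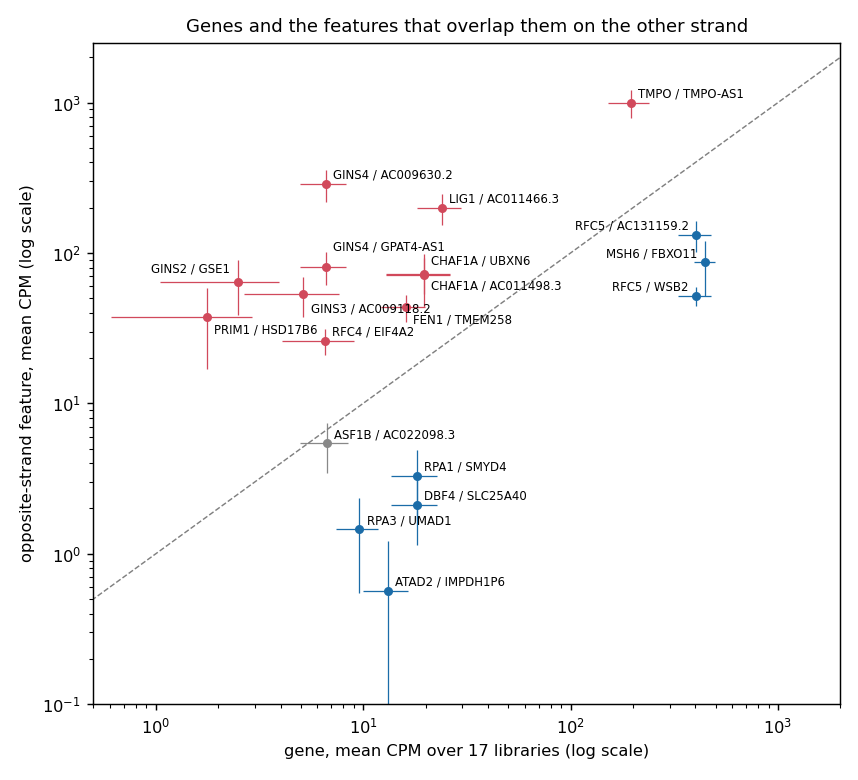
Mean CPM of each overlapped gene (x axis, log scale) against that of the feature on its other strand (y axis, log scale) over 17 libraries, with bars for the SD; red pairs had the feature higher in all 17 libraries, blue pairs in none, grey in 5, and a pair with the feature at 0 is left out. TMPO-AS1 at 999 CPM is the highest feature and sits above its gene at 195, while RFC5 and MSH6 sit far below the dashed line of equal levels.

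Averaged on the log2 scale over all 42 genes, the level was highest in arrested cells and lower at 6 h of release and under the inhibitor. The mean of log2(CPM + 1) over the genes was 3.39 ± 0.08 in cycling cells, 3.52 ± 0.08 in arrested cells and 3.36 ± 0.04 in 4h_DMSO (SD, n = 3 each). It was 3.12 ± 0.07 in 4h_ATRi, 3.14 ± 0.05 in 6h_DMSO (n = 3 each) and 2.99 ± 0.25 in 6h_ATRi (n = 2). The arrested libraries, at 3.46 to 3.61, lay above every other library, with the highest cycling library close by at 3.45. The 4h_ATRi libraries, at 3.05 to 3.19, lay below all 3 of 4h_DMSO, at 3.33 to 3.40. The 2 of 6h_ATRi lay apart at 2.82 and 3.17, and the higher was within the 6h_DMSO range of 3.09 to 3.18. This score is a description with no test, and it moves with genes of few counts. The summed level of the 42 genes, most of it on RFC5, MSH6 and TMPO, ran differently, at 1576 ± 100 CPM in cycling cells, 1461 ± 172 when arrested, 1382 ± 200 in 4h_DMSO, 1411 ± 101 in 4h_ATRi, 1430 ± 101 in 6h_DMSO and 1383 ± 91.6 in 6h_ATRi.

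The 26 genes without an opposite-strand exon showed the same order more widely spaced. Their mean log2 level was 2.84 ± 0.09 in cycling cells, 2.99 ± 0.08 in arrested cells, 2.80 ± 0.08 in 4h_DMSO, 2.47 ± 0.09 in 4h_ATRi, 2.52 ± 0.09 in 6h_DMSO and 2.31 ± 0.36 in 6h_ATRi. Their summed level was 298 ± 38.8 CPM in cycling cells, 297 ± 10.7 when arrested, 260 ± 27 in 4h_DMSO and 220 ± 16.4 in 6h_DMSO. With the inhibitor the sums were 223 ± 5.97 CPM at 4 h and 149 and 261 CPM in the 2 libraries at 6 h. Those 2 lay on either side of the 6h_DMSO range of 202 to 234 CPM. The 16 overlapped genes ran only from 4.11 ± 0.07 in 6h_ATRi to 4.38 ± 0.18 in arrested cells on the log2 scale. In bulk RNA, fewer cells in S phase and less of each transcript per cell cannot be told apart. A list of 15 G2 and mitosis genes, from CCNB1 to UBE2C, summed to 226 ± 28.5 CPM in arrested cells, 339 ± 13.3 in cycling cells, 305 ± 0.773 in 4h_DMSO, 492 ± 62.7 in 6h_DMSO, 588 ± 43.3 in 4h_ATRi and 756 ± 0.913 in 6h_ATRi, and its part in the levels of the fork genes was not tested.

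**Figure D2:**
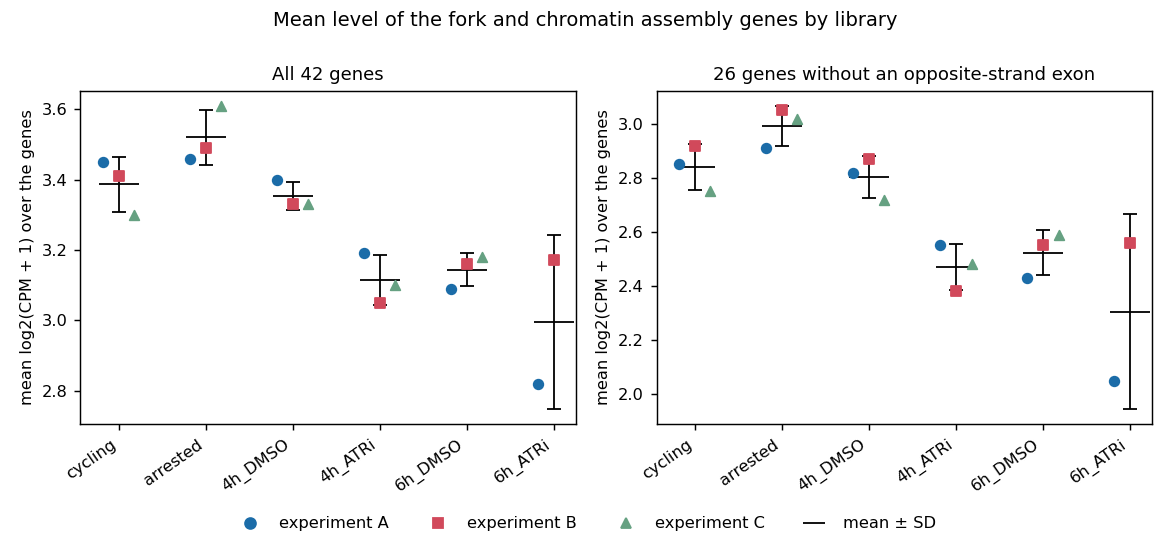
Mean log2(CPM + 1) in each library (y axis) by condition (x axis), over all 42 genes and over the 26 without an opposite-strand exon; symbols are experiments A, B and C, and bars are the mean ± SD. Arrested libraries sit at 3.46 to 3.61 over the 42 genes, and 6h_ATRi has its 2 libraries at 2.82 and 3.17.

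PCNA, the clamp that holds polymerases on DNA, was read at 5 to 38 counts per library. Its CPM were 6.21, 12.9 and 5.31 in cycling libraries A, B and C, and 13.1, 18.9 and 9.65 in the arrested ones. After release they were 10.5, 7.43 and 5.41 in 4h_DMSO and 6.06, 5.52 and 3.29 in 6h_DMSO. Every arrested library was above every 6h_DMSO library, and experiment B held the highest value of both unreleased conditions. With AZ20 the values were 4.56, 4.56 and 5.7 at 4 h, and 2.8 and 4.31 at 6 h.

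The clamp is loaded by replication factor C, of which RFC5 was the only abundantly counted subunit. The counts on RFC5 may hold reads of WSB2 or AC131159.2 on its other strand. RFC4 averaged 6.64 ± 3.89 CPM in cycling cells, 7.67 ± 1.56 when arrested, 8.26 ± 1.22 in 4h_DMSO, 5.84 ± 2.47 in 4h_ATRi, 5.36 ± 3.62 in 6h_DMSO and 4.94 ± 0.133 in 6h_ATRi. RFC3, with a median of 3 counts and too few for a test, averaged 1.13 ± 0.594, 1.74 ± 0.476, 2.63 ± 2.71, 1.99 ± 0.928, 1.72 ± 1.65 and 1.65 ± 0.0443 CPM in the same order. DSCC1, part of an alternative loader that also serves sister chromatid cohesion, averaged 7.59 ± 0.96, 11.6 ± 4.37, 5.28 ± 0.995, 5.36 ± 2.88, 6.9 ± 2.72 and 5.75 ± 1.01 CPM. The arrested libraries of DSCC1, at 8.95 to 16.6, lay above those of 4h_DMSO at 4.49 to 6.4. The ranges of RFC3 and RFC4 overlapped between all conditions without inhibitor. RFC1 and RFC2 averaged 7.66 ± 1.92 and 4.09 ± 1.56 CPM over the 17 libraries.

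Among the polymerase subunits the counts were low, and the primase genes were the lowest. POLA1, the catalytic subunit of polymerase α, averaged 5.23 ± 1.33 CPM in cycling cells, 4.86 ± 1.78 when arrested, 3.3 ± 1.01 in 4h_DMSO, 3.24 ± 3.19 in 4h_ATRi, 3.04 ± 1.79 in 6h_DMSO and 1.65 ± 0.0443 in 6h_ATRi. PRIM1, which lays down the RNA primer, averaged 1.28 ± 1.4, 3.14 ± 0.662, 1.81 ± 1.5, 1.53 ± 0.68, 1.65 ± 1.15 and 0.829 ± 0.411 in that order. POLD3, an accessory subunit of polymerase δ, averaged 2.22 ± 0.596, 2.53 ± 1.36, 4.13 ± 0.764, 0.785 ± 0.991, 2.39 ± 1.42 and 1.1 ± 0.0296. For POLD3 this was 25 counts over the 3 libraries of 4h_DMSO and 5 over those of 4h_ATRi, and neither it nor PRIM1 had enough counts for a test. POLE2, an accessory subunit of polymerase ε, averaged 8.28 ± 1.8, 5.03 ± 1.75, 9.74 ± 4.44, 6.12 ± 5.37, 4.8 ± 3.81 and 8.17 ± 5.22, with SDs nearly as large as the means in 4h_ATRi and 6h_DMSO. POLE itself averaged 17.5 CPM over all libraries, POLD2 9.95, POLD1 7.11 and POLA2 4.43, while PRIM2 had 0 or 1 count in every library.

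Of the proteins that bind and join the new strands, RPA2 averaged 4.38 ± 2.96 CPM in cycling cells, 3.12 ± 1.74 when arrested, 3.97 ± 0.513 in 4h_DMSO, 3.1 ± 1.04 in 4h_ATRi, 3.81 ± 4.19 in 6h_DMSO and 3.53 ± 2.62 in 6h_ATRi. RPA1 and RPA3, the other subunits that coat single-stranded DNA, averaged 18.2 and 9.58 CPM over the libraries. FEN1, which trims the flaps of Okazaki fragments, averaged 19 ± 2.68, 16.3 ± 5.7, 16.7 ± 3.96, 14.2 ± 4.7, 13.3 ± 1.58 and 17.1 ± 2.01 in the order above. LIG1, which seals them, averaged 23.4 ± 9.65, 23.2 ± 8.06, 29.2 ± 0.789, 23.1 ± 3.89, 23.3 ± 3.35 and 19.7 ± 4.13. Neither FEN1 nor LIG1 had a condition that stood clear of all the others, and both have a more abundant feature on the other strand (TMEM258 at 43.4 ± 8.91 CPM for FEN1).

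The helicase genes gave 1 to 21 counts per library. CDC45 averaged 4.25 ± 1.17 CPM in cycling cells, 5.72 ± 1.29 when arrested, 6.28 ± 0.613 in 4h_DMSO, 6.48 ± 3.46 in 4h_ATRi, 3.04 ± 1.79 in 6h_DMSO and 1.65 ± 0.0443 in 6h_ATRi. GINS1 averaged 3 ± 0.749, 4.1 ± 1.41, 4.3 ± 1.91, 1.68 ± 1.04, 2.93 ± 1.49 and 1.92 ± 0.337 in that order, and GINS2, which was not tested, averaged 2.23 ± 1.75, 3.16 ± 0.738, 3.13 ± 2.04, 2.93 ± 1.14, 1.15 ± 0.525 and 2.17 ± 2.27. At 6h_DMSO, CDC45 (1 to 4.38) lay below its arrested and 4h_DMSO ranges, and GINS2 (0.548 to 1.51) lay below its arrested range and overlapped that of 4h_DMSO. WDHD1, which ties polymerase α to the helicase, had CPM of 4.49, 10.4 and 4.92 in 4h_DMSO A, B and C, and 2.74, 1.82 and 4.75 in 4h_ATRi. Its other libraries held 6.65, 3.98 and 5.8 in cycling cells, 5.34, 5.97 and 7.62 in arrested cells, 1.86, 3.01 and 4.38 in 6h_DMSO, and 5.04 and 1.62 in 6h_ATRi. For WDHD1 the inhibitor and DMSO ranges at 4 h overlapped, and its 4h_DMSO mean rests on library B.

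Genes that license and fire origins did not share a pattern. ORC6, of the origin recognition complex, averaged 21.3 ± 4.86 CPM in cycling cells, 20.2 ± 2.07 when arrested, 22.8 ± 7.1 in 4h_DMSO, 26.3 ± 5.15 in 4h_ATRi, 23.4 ± 5.84 in 6h_DMSO and 21.3 ± 11.9 in 6h_ATRi. ORC1, its ATPase, averaged 3.67 ± 0.927, 5.39 ± 4.16, 2.64 ± 1.74, 1.22 ± 0.942, 1.85 ± 1.45 and 3.52 ± 3.4 in that order. The kinase CDC7, not tested, averaged 1.3 ± 1.06, 2.4 ± 1.43, 1.49 ± 0.503, 1.68 ± 0.934, 1.88 ± 1.54 and 2.45 ± 1.88. DBF4, which activates CDC7, had CPM of 19.5, 11.5 and 16.9 in cycling cells, 18.4, 15.9 and 19.8 in arrested cells, and 17, 5.94 and 15.3 in 4h_DMSO. The other libraries of DBF4 held 20.5, 19.6 and 22.8 in 4h_ATRi, 20, 17.6 and 19.7 in 6h_DMSO, and 25.8 and 21.6 in 6h_ATRi, so library B of 4h_DMSO was the lowest of the 17 and each inhibitor library was above each 4h_DMSO library.

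Of the chromatin assembly genes, CHAF1A encodes the large subunit of the histone chaperone CAF-1. It was lower at 6 h and with the inhibitor than in cycling or arrested cells, whose ranges overlapped. Its CPM were 34.6, 26.4 and 20.8 in cycling libraries A, B and C, 21.4, 27.8 and 26.9 when arrested, and 19.5, 21.8 and 22.2 in 4h_DMSO. They were 15.8, 16.1 and 15.9 in 6h_DMSO, 10.5, 17.3 and 10.9 in 4h_ATRi, and 11.2 and 13.5 in 6h_ATRi. For CHAF1A no 6h_DMSO library overlapped the cycling, arrested or 4h_DMSO range, and its overlapping features UBXN6 (72.9 ± 19.2 CPM) and AC011498.3 (71.4 ± 27.5) were both more abundant. CHAF1B averaged 7.22 ± 2.8 CPM in cycling cells, 8.45 ± 2.44 when arrested, 6.29 ± 3.32 in 4h_DMSO, 4.8 ± 1.61 in 4h_ATRi, 6.59 ± 0.94 in 6h_DMSO and 3.53 ± 2.62 in 6h_ATRi. The H3-H4 chaperone ASF1B averaged 6.43 ± 1.88, 7.27 ± 1.63, 6.77 ± 0.292, 8.03 ± 1.56, 5.18 ± 2.36 and 6.28 ± 2.55, and the chromatin ATPase ATAD2 averaged 13 ± 2.98, 16.7 ± 3.74, 13.9 ± 4.1, 11.2 ± 1.18, 11.3 ± 1.42 and 13.4 ± 3.91, in the same order. Those 3 genes kept overlapping ranges over the conditions without inhibitor.

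TMPO, which encodes the LAP2 proteins that bind chromatin and the nuclear lamina, ran the other way. Its CPM were 142, 132 and 159 in cycling libraries, 203, 152 and 207 when arrested, 231, 159 and 146 in 4h_DMSO and 242, 181 and 216 in 6h_DMSO. With AZ20 they were 276, 229 and 221 at 4 h, and 253 and 172 at 6 h. All 6h_DMSO and 4h_ATRi libraries of TMPO were above the highest cycling library, and experiment A was highest in each condition after release.

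The genes that carry DNA methylation through replication differed among themselves. UHRF1, which reads half-methylated CpG sites, had CPM of 66.5, 58.3 and 45.4 in cycling libraries A, B and C, against 35, 34.3 and 33 when arrested. It stayed near that level after release, at 38.9, 41.6 and 21.7 in 4h_DMSO, 29.4, 31.6 and 40 in 6h_DMSO, 30.1, 32.4 and 34.7 in 4h_ATRi, and 30.2 and 49 in 6h_ATRi. Each cycling library of UHRF1 was above every library without inhibitor of the other conditions. DNMT1, the maintenance methyltransferase, had 93.1, 109 and 66.2 in cycling cells, 73, 78 and 87.9 when arrested, 74.4, 61.9 and 64 in 4h_DMSO, 56.4, 65.3 and 56.4 in 6h_DMSO, 64.7, 57.5 and 65 in 4h_ATRi, and 38.6 and 70.1 in 6h_ATRi. The lowest cycling library of DNMT1 was just above the highest at 6h_DMSO. HELLS, a remodelling ATPase needed for DNA methylation, was high in a different pair of conditions, with 14.2, 17.9 and 7.62 in arrested libraries and 16, 11.4 and 10.8 in 4h_DMSO. It had 11.1, 5.48 and 5.8 in cycling cells, 7.75, 5.02 and 5.7 in 4h_ATRi, 6.52, 7.03 and 4.38 in 6h_DMSO, and 8.4 and 5.39 in 6h_ATRi. No 4h_DMSO library of HELLS overlapped those of 4h_ATRi or 6h_DMSO, at 8 to 36 counts per library.

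Of the repair genes active at forks, the nuclease EXO1, not tested, averaged 2.99 ± 1.69 CPM in cycling cells, 3.33 ± 0.561 when arrested, 2.82 ± 1.9 in 4h_DMSO, 0.462 ± 0.0107 in 4h_ATRi, 2.35 ± 1.45 in 6h_DMSO and 0.539 ± 0.762 in 6h_ATRi. That is 17 counts over the 4h_DMSO libraries and 3 over those of 4h_ATRi, and for 6 h 14 and 2. UNG, which removes uracil from DNA, averaged 5.36 ± 2.17, 6.59 ± 1.07, 3.64 ± 1.54, 3.7 ± 0.463, 2.56 ± 1.18 and 1.65 ± 0.0443 in that order. MSH6, a mismatch sensor, averaged 486 ± 54.2, 426 ± 51.9, 409 ± 52.4, 429 ± 22.3, 456 ± 36.7 and 466 ± 87.9. EXO1 and UNG had their lowest means with the inhibitor at 4 h and 6 h respectively, and the ranges of MSH6 in the conditions overlapped.

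**Figure D3:**
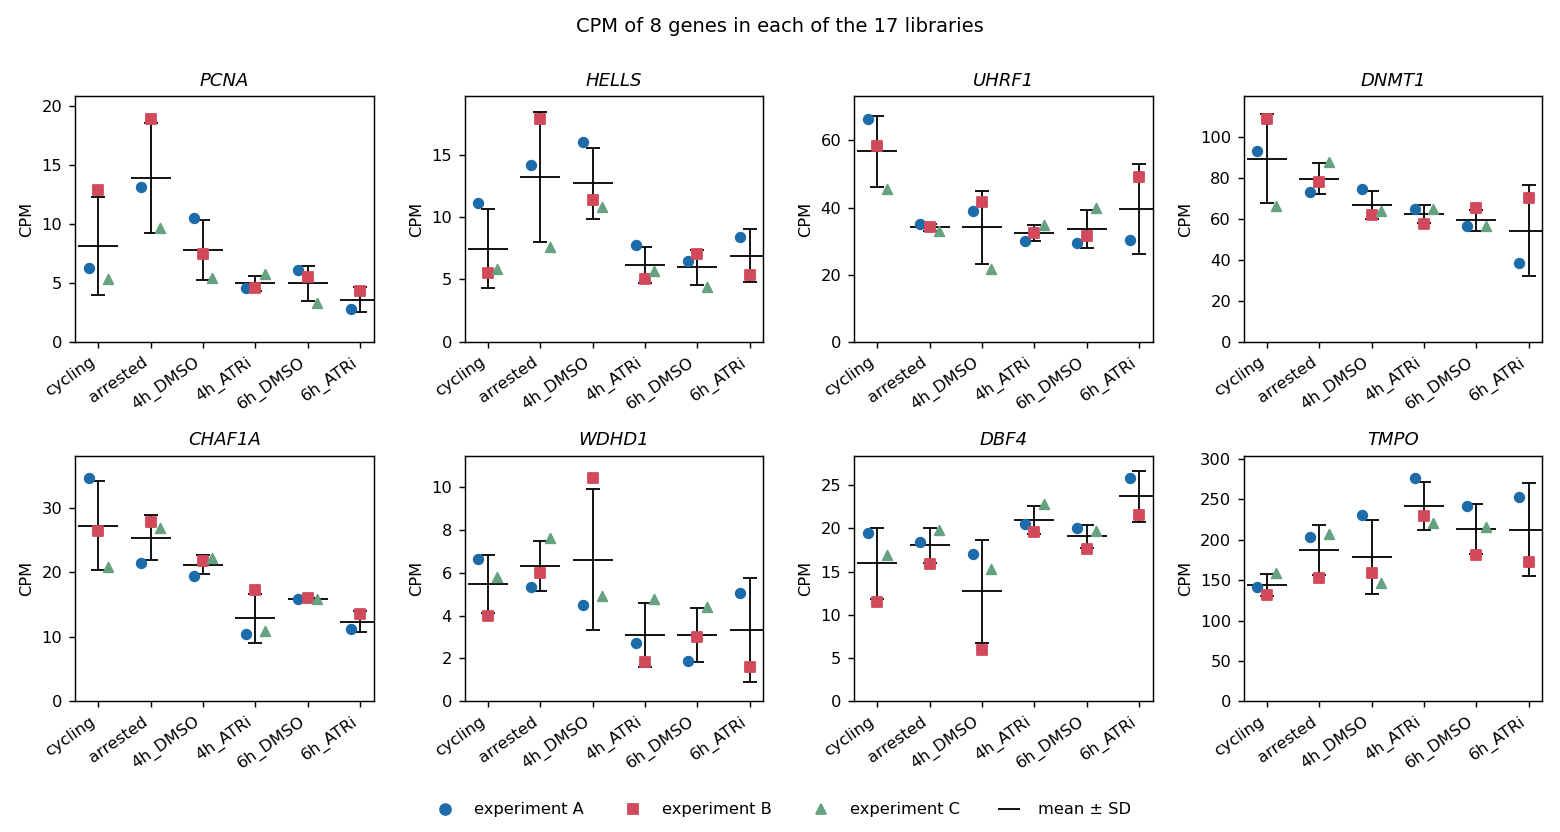
CPM (y axis, from 0) of 8 genes in each of the 17 libraries by condition (x axis), with experiments A, B and C as symbols and the mean ± SD as bars. PCNA and HELLS are high in arrested cells and low at 6 h, UHRF1 is highest in cycling cells, at 45.4 to 66.5, CHAF1A lies at 15.8 to 16.1 in 6h_DMSO, and TMPO is highest in 4h_ATRi library A at 276.

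The comparisons below were fitted once over all 17 libraries and 13510 features with edgeR's quasi-likelihood test, and a call is an adjusted p under 0.05 over all features. The main fit has a mean per condition only, and a second fit adds the experiment letter as a replicate block, which pairs the libraries of an experiment. Without the block no comparison called any of the 35 tested genes, by edgeR or by DESeq2. The comparisons share control libraries, so their values stand side by side and are not independent.

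In arrested against cycling cells, the fork genes had a median log2 fold change of 0.17, with 21 of 35 positive, beside -0.01 over all features. UHRF1 had the smallest p, with a log2 fold change of -0.73 ± 0.23 (SE) and an adjusted p of 0.175, and 0.00759 with the block. HELLS had 0.81 ± 0.38 (adjusted p 0.475), TMPO 0.37 ± 0.19 (0.533), PCNA 0.77 ± 0.39 (0.54) and the polymerase ε gene POLE 0.53 ± 0.29 (0.588). With the block edgeR called 3 of 35: UHRF1 fell by 0.73, the clamp loader gene RFC5 fell by 0.34 (adjusted p 0.0163) and TMPO rose by 0.37 (0.0375). Of all features 1.03% were called without the block and 5.64% with it, so 3 of 35 is close to the background. DESeq2 called 0 of the 35 and 1.44% of all features, and at an unadjusted p under 0.05 edgeR had 2 of 35, HELLS and UHRF1, against 9.89%. In the smaller fits named next, the log2 fold changes with the block kept their sign. They were -0.54 to -0.69 for UHRF1, -0.24 to -0.33 for RFC5, and 0.26 and 0.29 for TMPO. Each blocked call was nevertheless lost when certain libraries were left out. That of UHRF1 was lost without library A of cycling cells (adjusted p 0.168), without library B of arrested cells (0.078) and without experiment B (0.088). That of RFC5 was lost without cycling B (0.185), arrested A (0.066), arrested B (0.114) or experiment B (0.331), and that of TMPO without cycling A (0.285) or arrested C (0.204).

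At 4 h of release with DMSO, the fork genes were close to their level in arrested cells, with a median log2 fold change of -0.10 and 25 of 35 negative beside 0.00 over all features. DSCC1 had -1.11 ± 0.42 (edgeR adjusted p 0.304), PCNA -0.83 ± 0.40 (0.498), POLA2 -0.88 ± 0.52 (0.658), DBF4 -0.50 ± 0.30 (0.664) and POLE2 0.93 ± 0.57 (0.67). The block called 0 of 35 as well, against 4.77% of all features, 0.74% without the block and 1.35% by DESeq2, which also called 0. At an unadjusted p under 0.05 there were 2 of 35, DSCC1 and PCNA, against 9.67%.

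Against cycling cells, the 4 h DMSO libraries gave a median log2 fold change of -0.11 with 20 of 35 negative, beside -0.01 over all features. UHRF1 again had the smallest p, at -0.74 ± 0.23 (edgeR adjusted p 0.149), followed by DNMT1 at -0.42 ± 0.20 (0.475), HELLS at 0.76 ± 0.38 (0.507), RFC5 at -0.36 ± 0.19 (0.56) and GINS3 at -0.89 ± 0.48 (0.564). With the block 2 of 35 were called, against 5.87% of all features: UHRF1 fell by 0.74 (adjusted p 0.00503) and RFC5 fell by 0.39 (0.00429). The call of UHRF1 was lost without cycling A (0.164) or 4h_DMSO C (0.255), and that of RFC5 without cycling B (0.0913), 4h_DMSO B (0.306) or experiment B (0.469). Leaving out experiment B in the fit without the block called UHRF1 (0.0191). The background without the block was 0.918%, by DESeq2, with 0 of 35, 1.61%, and at an unadjusted p under 0.05, with 2 of 35, 10.1%.

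By 6 h of release the fork genes lay lower than in arrested cells, with a median log2 fold change of -0.42 and 26 of 35 negative, beside -0.01 over all features, of which 51.1% were negative. The 6 tested polymerase genes were all negative, with a median of -0.65 and a range of -0.83 for POLD1 to -0.07 for POLE2. PCNA had a log2 fold change of -1.46 ± 0.42 and an edgeR adjusted p of 0.0593, just over the threshold, and HELLS had -1.13 ± 0.39 (0.16). CHAF1A had -0.67 ± 0.26 (0.225), UNG -1.35 ± 0.54 (0.264) and POLE -0.72 ± 0.30 (0.284). With the block 2 of 35 were called, PCNA, which fell by 1.46 (adjusted p 0.00675), and HELLS, which fell by 1.14 (0.0358). That share is below the 7.71% of all features called with the block, and the background was 2.32% without it and 2.81% by DESeq2, which called 0 of 35. Unadjusted, 6 of 35 had a p under 0.05, all negative, against 11.9%: CHAF1A, DNMT1, HELLS, PCNA, POLE and UNG. The blocked call of PCNA was lost without arrested B (0.068), 6h_DMSO B (0.0613) or experiment B (0.141). That of HELLS was lost without arrested A (0.0537), arrested B (0.372), 6h_DMSO A (0.218), 6h_DMSO B (0.0539), 6h_DMSO C (0.111) or experiment B (0.268). Without the block, PCNA passed when cycling library B was left out (0.0487). Over the same comparison 8 of the 15 G2 and mitosis genes were called, all higher, with a median log2 fold change of 1.15, and their part in the fork genes' values was not tested.

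Set against cycling cells, the 6 h DMSO libraries gave negative values for 31 of the 35 fork genes, with a median of -0.31 beside -0.02 and 51.8% negative over all features. UHRF1 had -0.76 ± 0.23 (edgeR adjusted p 0.135), CHAF1A -0.77 ± 0.25 (0.175), TMPO 0.56 ± 0.19 (0.189), DNMT1 -0.59 ± 0.20 (0.2) and UNG -1.06 ± 0.54 (0.527). With the block 4 of 35 were called, against 6.29% of all features. UHRF1 fell by 0.75 (adjusted p 0.00465), CHAF1A fell by 0.78 (0.0404) and DNMT1 fell by 0.59 (0.00789), while TMPO rose by 0.55 (0.00026). TMPO remained called in all 18 smaller fits with the block, 17 that left out 1 library and 1 without experiment B, and was also called without the block when experiment B was left out (0.00121). CHAF1A was called in 1 of those 18 and had an adjusted p of 0.479 without cycling A. DNMT1 was lost without cycling A (0.104), cycling B (0.22), 6h_DMSO A (0.0993), 6h_DMSO C (0.0631) or experiment B (0.184). UHRF1 was lost without cycling A (0.151), 6h_DMSO A (0.139), 6h_DMSO B (0.081) or experiment B (0.0988). Without the block 1.04% of all features were called, by DESeq2, with 0 of 35, 1.64%, and at an unadjusted p under 0.05, with 4 of 35, 10.3%.

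Between 4 h and 6 h of release with DMSO, the fork genes had a median log2 fold change of -0.26 with 24 of 35 negative, beside -0.02 over all features. HELLS had -1.07 ± 0.39 (edgeR adjusted p 0.68), WDHD1 -1.10 ± 0.53 (0.998), CDC45 -1.04 ± 0.53 (1), DBF4 0.59 ± 0.30 (1) and POLE2 -1.0 ± 0.57 (1). None of the 35 was called without the block, with it or by DESeq2, where 0.0814%, 1.04% and 0.222% of all features were called in that order. Unadjusted, 2 of 35 had a p under 0.05, HELLS and WDHD1, against 4.97%.

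The inhibitor comparison at 4 h asks whether the fork genes differ under ATR inhibition at the time that the series places in late S phase. Their median log2 fold change, 4h_ATRi against 4h_DMSO, was -0.23 with 24 of 35 negative, beside -0.01 over all features. The helicase genes had the lowest median of the roles, -0.76, with 4 of 5 negative, from GINS1 at -1.32 ± 0.70 to CDC45 at 0.04 ± 0.48. CHAF1A had -0.71 ± 0.26 and HELLS -1.04 ± 0.39 (edgeR adjusted p 0.615 for each), DBF4 had 0.72 ± 0.30 (0.744), TMPO 0.44 ± 0.19 (0.796) and WDHD1 -1.08 ± 0.52 (0.88). With the block 1 of 35 was called, against 1.75% of all features: TMPO rose by 0.45 (adjusted p 0.0114). That call was lost without 4h_DMSO C (0.285), 4h_ATRi A (0.0545), 4h_ATRi B (0.117) or experiment B (0.0902). TMPO-AS1 on its other strand held 1202, 781 and 875 CPM in 4h_DMSO and 1306, 993 and 1037 in 4h_ATRi, higher with the inhibitor in each experiment, and was not called. The background without the block was 0.311%, and by DESeq2, with 0 of 35, 0.437%. At an unadjusted p under 0.05 there were 5 of 35, against 5.6%, namely CHAF1A, HELLS and WDHD1 with negative and DBF4 and TMPO with positive values. In the same libraries 7 of the 15 G2 and mitosis genes were called, all higher, with a median log2 fold change of 0.96. Their part in the fork genes' values was not tested.

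At 6 h, in G2, the inhibitor gave a median log2 fold change of -0.12 with 23 of 35 negative, beside 0.01 over all features. RFC2 had -0.97 ± 0.64, CHAF1B -0.87 ± 0.59, RPA1 -0.48 ± 0.35, CDC45 -0.85 ± 0.72 and CHAF1A -0.37 ± 0.31, each with an edgeR adjusted p of 1. No fork gene was called with or without the block or by DESeq2, and none had an unadjusted p under 0.05, where all features gave 0.533%, 0.0074%, 0.133% and 4.8% in that order. The 2 libraries with the inhibitor differed from each other, as in DNMT1 at 38.6 and 70.1 CPM and RPA1 at 7.28 and 16.7. The response at 6 h minus that at 4 h, tested in the same fit, had a median of 0.03 over the 35 genes beside 0.02 over all features. HELLS had the smallest p, with a difference of 1.23 ± 0.61, followed by POLE2 at 1.42 ± 0.84, RFC2 at -1.36 ± 0.85, TMPO at -0.44 ± 0.28 and ORC1 at 1.98 ± 1.31, each with an adjusted p of 1. No fork gene was called for that difference, where 0% of all features were called by edgeR and 0% by DESeq2, 0.0444% with the block and 2.97% at an unadjusted p under 0.05.

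**Figure D4:**
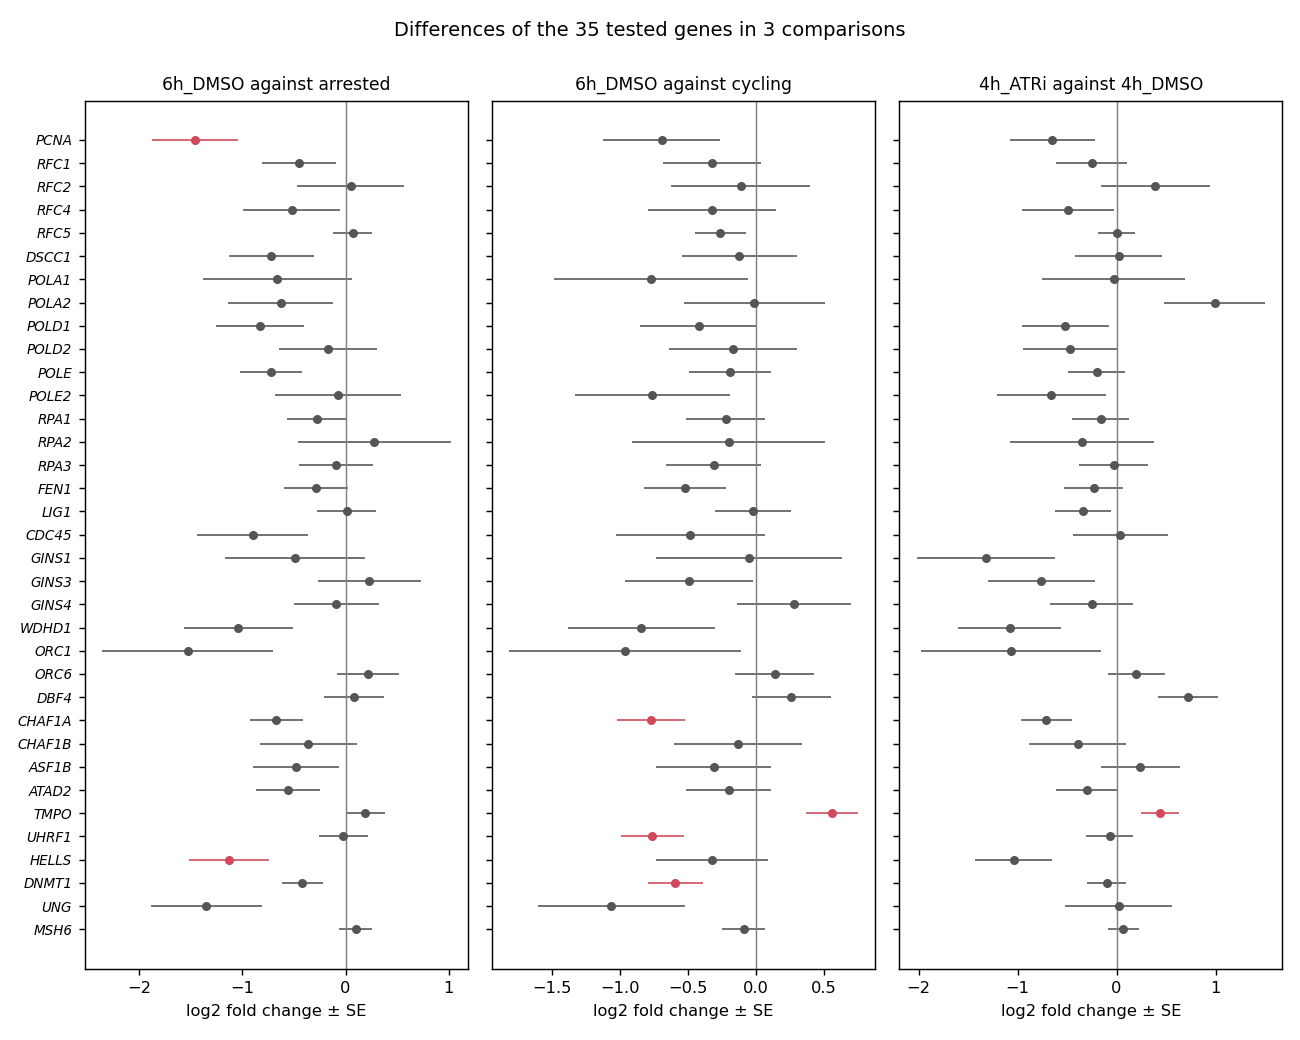
Log2 fold change ± SE (x axis, main edgeR fit) of the 35 tested genes (y axis, by role) in 3 comparisons, with genes called only once the replicate block was added in red. PCNA at -1.46 and HELLS at -1.13 are red in 6h_DMSO against arrested, CHAF1A, TMPO, UHRF1 and DNMT1 against cycling, and TMPO alone at 0.44 with the inhibitor at 4 h.

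Some features on the other strand of these genes were called without the block. Of 20 such features 16 were tested, and UMAD1, AC007161.3, SLC25A40 and IMPDH1P6 had too few counts. At 6 h of release against arrested cells 6 were called by edgeR, all lower, against the 2.32% of all features, and with the block 11 were lower and TMPO-AS1 higher, against 7.71%. HSD17B6, which overlaps PRIM1, had CPM of 63.5, 59.7 and 85.9 in arrested libraries, 54.9, 33.7 and 32.5 in 4h_DMSO and 21.9, 16.1 and 23 in 6h_DMSO. The arrested and 6 h libraries of HSD17B6 were far apart, and it fell by 1.78 ± 0.26 on the log2 scale (adjusted p 0.00017), the largest fall of the 6. AC011498.3, which overlaps CHAF1A, held 117, 75.1 and 115 CPM when arrested and 55.5, 43.7 and 51 at 6h_DMSO, and fell by 1.03 ± 0.19 (0.00184). UBXN6 fell by 0.88 ± 0.18 (0.00533), FBXO11 fell by 0.89 ± 0.18 (0.00556), and both GSE1, by GINS2, and AC009630.2, by GINS4, had an adjusted p of 0.0485, falling by 0.67 ± 0.18 and 0.68 ± 0.19. The calls of HSD17B6 and AC011498.3 held without each library. That of FBXO11 was lost without arrested C (0.0839), that of UBXN6 without arrested C (0.0619) or 6h_DMSO A (0.0693), and those of GSE1 and AC009630.2 in most of the smaller fits, with adjusted p up to 0.283 and 0.33. The exon stretch shared with the fork gene is 7 bases for GSE1, 20 for UBXN6, 132 for HSD17B6 and 1785 for FBXO11.

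Against cycling cells 2 of the 16 features were called at 4 h (0.918% of all features) and 4 at 6 h (1.04%), all lower, and the median of the 16 was -0.06 at 4 h and -0.29 at 6 h. At 4 h edgeR called FBXO11, which fell by 1.02 ± 0.18 (adjusted p 0.00375), and GSE1, which fell by 0.89 ± 0.18 (0.00951) but was lost without cycling C (0.0936) or 4h_DMSO C (0.0851). At 6 h it called GSE1, which fell by 1.27 ± 0.18 (0.000314), FBXO11, which fell by 1.14 ± 0.18 (0.00129), AC011498.3, which fell by 1.04 ± 0.19 (0.00484), and HSD17B6, which fell by 1.24 ± 0.26 (0.0152). AC011498.3 was lost without cycling A (0.0524). HSD17B6 was lost without cycling A (0.0964), cycling C (0.104), 6h_DMSO A (0.065), 6h_DMSO B (0.093) or 6h_DMSO C (0.0515). FBXO11 and UBXN6 also fell at 4 h against arrested cells, by 0.76 ± 0.18 (0.042) and 0.85 ± 0.18 (0.021). Of 17 fits that left out 1 library, the call of FBXO11 held in only 6 and that of UBXN6 in 13. Without arrested C, FBXO11 had a log2 fold change of -0.57 (edgeR adjusted p 0.314) and UBXN6 -0.74 (0.171). In 4h_ATRi, HSD17B6 held 33.3, 17.3 and 21.4 CPM, and none of these features was called without the block. With the block HSD17B6 fell by 0.75 (0.0246), AC011498.3 fell by 0.66 (0.00665) and AC009118.2, by GINS3, fell by 0.76 (0.00397). These calls held in 13, 14 and 16 of the 18 smaller fits with the block, in that order. Each was lost without 4h_DMSO A (0.467, 0.126 and 0.132).

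Other genes of the fork, a list of 44 with 37 tested, had 1 gene called without the block. MCM3, a subunit of the MCM ring, held 33.3, 37.4 and 23.2 CPM in cycling libraries, 23.7, 21.9 and 27.9 when arrested, 18.5, 12.4 and 12.3 in 4h_DMSO and 11.7, 5.52 and 11 in 6h_DMSO. Its 6 h libraries were below every cycling and arrested library. At 6 h MCM3 fell by 1.73 ± 0.33 against cycling cells (edgeR adjusted p 0.0067) and by 1.38 ± 0.34 against arrested cells (0.0229), where 1.04% and 2.32% of all features were called. These calls of MCM3 held in 14 and 13 of 17 fits that left out 1 library, with adjusted p up to 0.0596 and 0.126. With the block 7 of the 37 were called against arrested cells at 6 h, against 7.71% of all features, all lower, among them the licensing factors CDC6 and CDT1, the histone chaperone NASP, MCM4 and the checkpoint adaptor CLSPN. In 4h_ATRi against 4h_DMSO none of the 37 was called, with or without the block, and their median was -0.07. The authors' deposited table of comparisons gave an adjusted p-value for 7 to 21 of the 42 fork genes per comparison, and none of these was under 0.05. In the authors' deposited table, which codes arrested minus 6h_DMSO, HSD17B6 had a log2 fold change of 1.48 with an adjusted p of 4.2e-07.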

How the data were processed

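RNA of 17 libraries was made with a stranded poly(A) kit (KAPA Stranded mRNA-Seq) after Trizol extraction, per the labels' protocols. TopHat, HTSeq, DESeq2 and GRCh37 are named per the submitters' processing notes, with no versions, roles or strand setting. The authors deposited raw read counts per Ensembl gene ID. They also deposited a table of log2 fold changes and one adjusted p-value per gene for 8 comparisons, used here only where it is named. Counts were scaled with TMM factors to CPM, filtered with filterByExpr (minimum count 10, total 15), which kept 13510 of 60252 features, and fitted with edgeR 4.0.16 (R 4.3.3, limma 3.58.1) by robust quasi-likelihood over all 17 libraries, with 9 contrasts and Benjamini-Hochberg adjustment over all features kept. DESeq2 1.42.0 was run as an alternative, and the scripts were tested on simulated data.

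The 42 genes and all lists were chosen with earlier results of these data known. A panel of 30 of the 42 genes is given in every condition. For each comparison the text names every called gene, up to the 10 largest, and where fewer than 5 were called those with the smallest p, up to 5. Of overlapping features and other fork genes it names those called, up to the 5 largest, and others it names were chosen after their values were seen. Gene names and exon overlaps come from GENCODE 29 (GRCh38).

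Column names carry the letters A, B and C, read here as the 3 repeats that the design text describes, so libraries of a letter are paired. Deviations from the condition means correlated at 0.0809 to 0.534 between libraries of a letter, and 2 pairs of experiment C fell under 0.1. In 6 of 23 pairs, all of experiments A and C, a library of another letter correlated more. Each of those 6 set released cells against cycling or arrested cells. Between released conditions the same letter correlated most in every pair. In 4h_ATRi against 4h_DMSO, A had 0.308 against 0.161 and C 0.22 against 0.146. The pairing rests on the design text and is clearest in the data for experiment B. The fit has 11 residual degrees of freedom, and 9 with the block. Alternatives were RLE factors, no filter, a filter of 20 counts in 2 libraries, the replicate block, leaving out each library and leaving out experiment B. Library totals of 1758747 to 2357561 counts limit the precision of genes with few counts.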

Additional observations from a re-analysis of the deposited data

How the results depend on the processing

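With the replicate block, which pairs libraries by experiment, the count of fork genes called went from 0 to 3 (arrested against cycling), 2 (4h_DMSO against cycling), 4 (6h_DMSO against cycling), 2 (6h_DMSO against arrested) and 1 (4h_ATRi against 4h_DMSO), and it stayed at 0 in the other 4 comparisons. Without experiment B and without the block it was 1 for 4h_DMSO and 1 for 6h_DMSO against cycling. Leaving out libraries with the block kept was chosen after seeing the data. Without experiment B those 5 counts were then 1, 1, 1, 0 and 0, and without 1 library they ranged over 1 to 3, 1 to 4, 1 to 4, 0 to 3 and 0 to 1. Without the block, leaving out 1 library gave 0 to 1 for 6h_DMSO against arrested. For the features on the other strand, the block gave 3 (arrested against cycling), 4 (4h_DMSO against cycling), 6 (4h_DMSO against arrested), 12 (6h_DMSO against arrested), 1 (6h_DMSO against 4h_DMSO) and 3 (4h_ATRi against 4h_DMSO). Without experiment B they were 3 for arrested against cycling, 4 for 4h_DMSO and 10 for 6h_DMSO against arrested, 1 for 6h_DMSO against 4h_DMSO and 1 for 4h_ATRi against 4h_DMSO, and no filter gave 1 for 4h_DMSO against arrested. Without 1 library these counts ranged over 1 to 2 (4h_DMSO against cycling), 2 to 4 (6h_DMSO against cycling), 0 to 2 (4h_DMSO against arrested) and 2 to 6 (6h_DMSO against arrested). With the block and without 1 library they ranged over 2 to 5 (arrested against cycling), 3 to 7 (4h_DMSO against arrested), 7 to 12 (6h_DMSO against arrested), 0 to 2 (6h_DMSO against 4h_DMSO) and 0 to 3 (4h_ATRi against 4h_DMSO). The mean log2 level with a pseudocount of 0.25 was 3.17, 3.33, 3.13, 2.82, 2.87 and 2.68 (cycling, arrested, 4h_DMSO, 4h_ATRi, 6h_DMSO, 6h_ATRi). Over the 35 tested genes, with the pseudocount of 1 used above, it was 3.81, 3.91, 3.73, 3.52, 3.52 and 3.39 in the same order. RPA1 with the inhibitor at 6 h, fitted with the block, was 0.01 without library A of 6h_ATRi, a reversed sign, and -1.21 without library B. The cause of these changes was not tested. Depth limits the fork genes, of which 15 had a median under 10 counts per library.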
